A study of Mus musculus with 16 samples.

Results

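The transcription factor NRF2, its repressor KEAP1 and 8 of the enzymes and carriers that NRF2 controls were followed in the left ventricle of mice with and without PKM2, the splice form of pyruvate kinase that is induced in stressed and growing cells. The 10 genes were taken by name from a table of 55492 genes: Nfe2l2, which encodes NRF2, Keap1, Hmox1, Nqo1, Gclc, Gclm, Slc7a11, Gsr, Srxn1 and Osgin1. The 16 libraries came from 16 male C57BL/6 mice aged 8 to 12 weeks, 1 left ventricle each. Homozygous floxed controls (PKM2fl/fl) and whole-body knockouts (PKM2-/-) were either unoperated (baseline, n = 2 per genotype), sham operated (n = 3 per genotype) or infarcted by ligation of the left anterior descending coronary artery (MI, n = 3 per genotype), and operated hearts were taken 3 days after surgery. The knockout allele lacks exon 10 of Pkm, and was made in the germline with a CMV-driven Cre that was then bred out, so PKM2 is missing from every cell type and a difference between the genotypes need not be one of cardiomyocytes. The comparisons ask whether loss of PKM2 changes the antioxidant programme of the heart, a question raised by the study's interest in reactive oxygen species.

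In unstressed cells KEAP1 acts as the adaptor of a CUL3 ubiquitin ligase that marks NRF2 for destruction by the proteasome. Oxidants and electrophiles modify KEAP1, NRF2 then escapes, enters the nucleus, pairs with a small MAF protein and binds antioxidant response elements beside genes of glutathione synthesis, thiol reduction, NADPH supply, and heme and quinone metabolism. Much of this control acts on the protein, so the Nfe2l2 transcript is not a measure of NRF2 activity. In the heart the pathway is known for limiting oxidative injury, and several of its targets, Hmox1 and Slc7a11 among them, also respond to other stress factors and are used by infiltrating myeloid cells.

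The 7 members with a RefSeq promoter entry (GRCm38.p6, the assembly mm10 is built on) were searched from 250 bases before to 50 bases after the annotated start for the core of the antioxidant response element, TGACNNNGC, and for TGACTCA, the AP-1 type site that overlaps it in sequence but not in any window here, on both strands. The core was present in 3 of the 7 windows, Nfe2l2, Gclm and Srxn1, against 12.4% of all 32851 promoter windows of that length, and TGACTCA was present in 2 of the 7, Srxn1 and Osgin1, against 5.20%. The stretches of 100 bases that hold these matches upstream of the start are shown, since these 4 genes are the members in which a match was found, and the capitals mark the match to either motif.
Nfe2l2 (chr2:75704814-75704913, minus strand): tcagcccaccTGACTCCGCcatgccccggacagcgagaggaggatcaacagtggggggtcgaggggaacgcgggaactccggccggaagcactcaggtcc
Srxn1 (chr2:152105394-152105493, plus strand): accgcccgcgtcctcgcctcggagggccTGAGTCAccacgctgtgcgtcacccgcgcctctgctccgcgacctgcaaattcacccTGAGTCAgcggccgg
Gclm (chr3:122245377-122245476, plus strand): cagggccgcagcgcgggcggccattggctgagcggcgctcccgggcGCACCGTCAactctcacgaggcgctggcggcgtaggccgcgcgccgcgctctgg
Osgin1 (chr8:119437007-119437106, plus strand): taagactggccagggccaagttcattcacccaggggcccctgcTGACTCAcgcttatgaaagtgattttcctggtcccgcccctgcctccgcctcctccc
Nfe2l2 held the core at positions -240 to -232 and Gclm held it on the opposite strand at -134 to -126, counted from the annotated start. Srxn1, the gene for sulfiredoxin, carried TGACTCA on the opposite strand at -102 to -96 and at -45 to -39, and the core just after its start, at 29 to 37. In Osgin1 the annotated start lies inside the gene's span, and TGACTCA stood at -97 to -91 from it. No match lay in the windows of Keap1, Nqo1 and Slc7a11, which says only that these letters are not in these 300 bases; the window of Slc7a11 also lies inside the gene's span. The genes themselves lie on chromosome 2 (Nfe2l2, chr2:75675513-75704663; Srxn1, chr2:152105524-152111376), chromosome 3 (Slc7a11, chr3:50364936-50499087; Gclm, chr3:122245487-122267215), chromosome 8 (Gsr, chr8:33653238-33698162; Hmox1, chr8:75093618-75100593; Nqo1, chr8:107388225-107403205; Osgin1, chr8:119425882-119446257) and chromosome 9 (Keap1, chr9:21229730-21239332; Gclc, chr9:77754535-77794489).

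Values are normalized counts, that is reads on a gene over a size factor that DESeq2 set for each library. The libraries held 20623769 to 71855101 reads on genes, of which 15.96 to 50.4% fell on rRNA-related loci, with both unoperated knockouts at 41.5% or more and both unoperated controls at 22.3% or less. All 10 members passed the filter on low values (a mean of 10 over the libraries), and a member's reads in 1 library ranged from 16 (Osgin1) to 9676 (Hmox1). The deposited table counts Pkm as 1 gene, which ran from 7779 to 12076 normalized counts in controls and from 10120 to 16113 in knockouts, so the loss of exon 10 could not be checked. All 8 cardiomyocyte markers were present in every library, and the hearts of MI mice were the ones with fewer of them: their summed level was 903305 to 1116282 in the 10 baseline and sham hearts, 401307, 415014 and 166903 in PKM2fl/fl MI mice 1 to 3, and 241270, 181154 and 180388 in PKM2-/- MI mice. Macrophage and monocyte markers (9 genes) summed to 6214 to 11347 in sham and 24507 to 37812 in MI hearts, and fibroblast markers (7 genes) to 25247 to 46903 and 143576 to 198206. Endothelial markers (6 genes) stayed between 17074 and 23104 in all libraries, and erythroid markers (5 genes) between 3952 and 21438. In such bulk tissue, a change in the number of cells of a type and a change in the RNA per cell cannot be told apart.

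Infarction moved most of the pathway in both genotypes, and it moved the targets in both directions. In PKM2fl/fl hearts 5 members rose (Hmox1, Slc7a11, Gsr, Srxn1 and Gclm), 2 fell (Nqo1 and Keap1), and 3 did not pass the test (limma, Benjamini-Hochberg adjusted p under 0.05 over 20576 genes). In PKM2-/- hearts 7 rose (the same 5 with Gclc and Osgin1), the same 2 fell, and Nfe2l2 alone did not pass. These counts stand against a large background: 50.1% of all genes tested were called in PKM2fl/fl hearts (24.8% higher, 25.3% lower) and 56.8% in PKM2-/- hearts (28.7% higher, 28.1% lower). With libraries scaled instead to their reads outside rRNA-related loci, 7 members were higher and 1 lower in controls, and 8 higher and 1 lower in knockouts. That scaling also tilted the background upward: 7147 of the 20576 genes were higher and 3322 lower in controls, and 9012 and 3422 in knockouts. At 2-fold or more, 2 members rose and none fell in controls (12.4% and 11.1% of all genes), and 3 rose and 1 fell in knockouts (14.5% and 14.3%). The median log2 fold change of the 10 members was 0.54 in controls and 0.73 in knockouts, beside 0.00 and 0.01 over all genes tested. Sham and MI values did not overlap for 8 members in controls and 9 in knockouts, where 59.0% and 62.3% of all genes did not overlap.

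**Figure D1:**
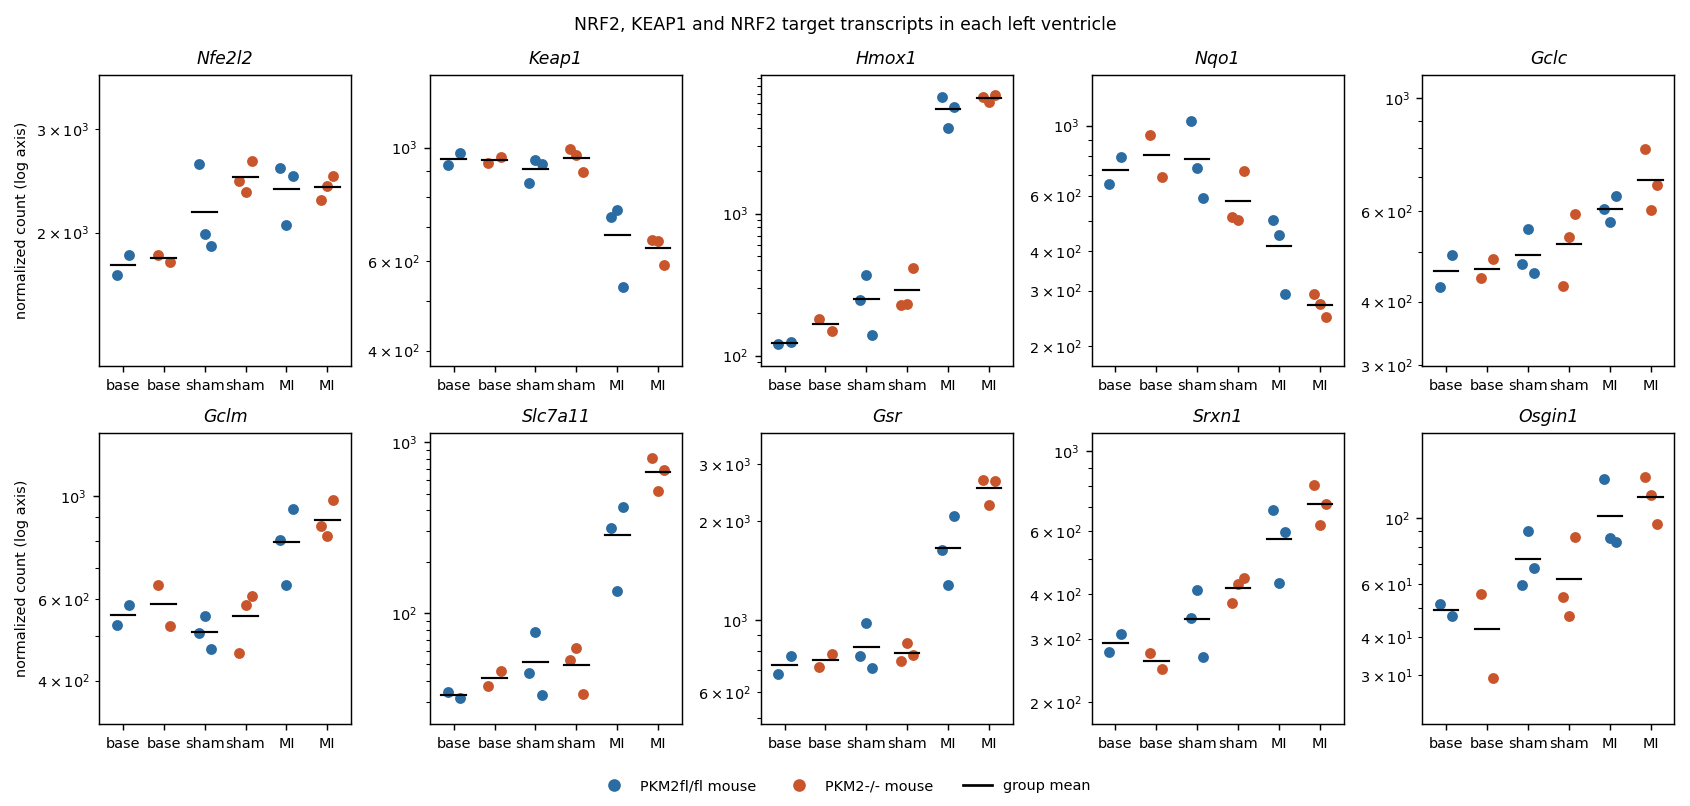
Normalized counts (log axis) of the 10 members in each of the 16 hearts, 1 point per mouse, with a bar at each group mean. Hmox1 lies at 417 or less in all baseline and sham hearts and at 3985 or more in all MI hearts, Slc7a11 and Gsr rise with MI in both genotypes, Nqo1 and Keap1 are lowest in MI, and Nfe2l2 changes little.

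The factor itself was the only member that passed the test in neither genotype after MI. Nfe2l2 stood at 1693 and 1834 normalized counts in unoperated controls, at 2621, 1986 and 1894 in sham controls and at 2571, 2063 and 2494 in MI controls. In PKM2-/- hearts it stood at 1833 and 1781, then 2447, 2346 and 2652, then 2268, 2396 and 2494. The sham and MI ranges overlapped in both genotypes, and MI differed from sham by 0.14 (SE 0.12, adjusted p = 0.343) in controls and -0.06 (SE 0.12, adjusted p = 0.713) in knockouts on the log2 scale, with 95% intervals of -0.11 to 0.39 and -0.31 to 0.20. The control difference passed without sham mouse 1 (0.29, adjusted p = 0.0452) and with libraries scaled to their reads outside rRNA-related loci (0.37, adjusted p = 0.0139). The sign in knockouts turned under the same scaling (0.31, adjusted p = 0.0299), a scaling that lifted the median of all genes by 0.37 in knockouts and 0.22 in controls; relative to that median Nfe2l2 was at -0.06 in knockouts and 0.15 in controls.

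Keap1 read 924 and 978 normalized counts at baseline, 854, 945 and 928 after sham surgery and 731, 754 and 532 after MI in PKM2fl/fl mice. The knockouts gave 932 and 960.3, then 994, 968 and 896, then 659.9, 655 and 589. Every MI heart was below every sham heart of its genotype, and the transcript fell by 0.45 (SE 0.12, adjusted p = 0.00483) in controls and by 0.59 (SE 0.12, adjusted p = 5.43e-04) in knockouts on the log2 scale. With libraries scaled to reads outside rRNA-related loci neither fall passed (-0.22 in both, adjusted p = 0.205 and 0.184), although Keap1 stayed 0.44 and 0.59 below the median of all genes.

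Because the ratio of both transcripts within a library is free of the scaling, it was compared directly. The log2 ratio of Nfe2l2 to Keap1 was 1.62, 1.07 and 1.03 in sham controls and 1.81, 1.45 and 2.23 in MI controls, and 1.30, 1.28 and 1.56 in sham knockouts against 1.78, 1.87 and 2.08 in MI knockouts. The knockout groups did not overlap and the control groups did, through sham mouse 1. The mean rise was 0.56 (0.59 in controls, 0.53 in knockouts), with p = 0.01 in a two-sided exact permutation test of the 12 operated hearts within genotype, whose smallest possible p is 0.005. Unoperated hearts had ratios of 0.87 to 0.97.

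Hmox1 encodes the inducible heme oxygenase, which opens the heme ring to release iron, carbon monoxide and biliverdin, and it gave the widest change of the set. It had 120.1 and 125 normalized counts in unoperated controls, 249, 369 and 139.7 in sham controls and 6678, 3985 and 5655 in MI controls. In knockouts the values were 182 and 150.3, then 227, 232 and 416, then 6629, 6145 and 6829. No sham heart came near an MI heart, and the rise was 22.6-fold in controls (log2 fold change 4.50, SE 0.29, adjusted p = 5.15e-08) and 23.2-fold in knockouts (4.54, SE 0.29, adjusted p = 3.60e-08). Hmox1 ranked 40 and 44 among 20576 genes by size of rise. Among MI hearts the lowest value, in control mouse 2, came from the heart with the lowest summed level of macrophage and monocyte markers, 24507. The order did not hold beyond that heart: control mouse 1 had 6678 at a marker sum of 28712, and control mouse 3 had 5655 at 37803. All 9 of these markers rose in both genotypes, and their part in the rises of Hmox1, Slc7a11 and Gsr was not tested.

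The genes of cystine uptake and glutathione handling rose to unequal degrees. Slc7a11 encodes xCT, the exchanger that brings in cystine for glutathione synthesis. Before infarction it had only 34.5 and 31.8 normalized counts at baseline and 44.7, 77.0 and 33.3 after sham surgery in controls, and reached 312, 135 and 415 after MI. In knockouts it had 37.3 and 45.8, then 53.1, 62.7 and 33.4, then 811, 514 and 691. The MI hearts stood clear of sham in both genotypes, with rises of 5.25-fold (log2 2.39, SE 0.38, adjusted p = 9.45e-05) and 13.5-fold (3.75, SE 0.38, adjusted p = 1.26e-06), ranks 612 and 180 among all genes.

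Gclc and Gclm encode the catalytic and the modifier subunit of glutamate-cysteine ligase, the rate-limiting enzyme of glutathione synthesis. Gclm was 528 and 583 at baseline, 506, 551 and 468 after sham surgery and 805, 644 and 937 normalized counts after MI in controls, and 645 and 526, 459.8, 582 and 608, and 862, 821 and 978 in knockouts. It rose 1.55-fold (log2 0.63, SE 0.15, adjusted p = 0.00205) and 1.62-fold (0.69, SE 0.15, adjusted p = 7.93e-04).
Gclc moved less: 427 and 493, 473, 553 and 454, and 608, 573 and 643 in controls, and 444 and 484, 429, 534 and 594, and 794, 603 and 675 in knockouts. Its log2 difference of 0.41 (SE 0.13, adjusted p = 0.0157) passed in knockouts, and that of 0.30 (SE 0.13, adjusted p = 0.0726) in controls did not. The control difference passed by limma-voom (0.32, adjusted p = 0.0490), without sham mouse 2 (0.39, adjusted p = 0.0448) and with libraries scaled to reads outside rRNA-related loci (0.53, adjusted p = 0.00316), and the interaction of genotype and MI was 0.11 (adjusted p = 0.906). The knockout call rested on sham mouse 1 and MI mouse 1, without which the adjusted p was 0.0921 and 0.0794. The modifier gained on the catalytic subunit: the log2 ratio of Gclm to Gclc was -0.01 to 0.12 in the 6 sham hearts and 0.12 to 0.54 in the 6 MI hearts, a mean rise of 0.30 (0.33 in controls, 0.28 in knockouts; exact permutation test within genotype, p = 0.01). The ranges overlapped slightly in knockouts, where MI mouse 1 (0.119) lay below sham mouse 2 (0.125), and unoperated hearts spread from 0.12 to 0.54.

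Gsr, the reductase that returns oxidised glutathione to its reduced form with NADPH, had 683 and 774 normalized counts at baseline, 777, 979 and 714 after sham surgery and 1632, 1276 and 2072 after MI in controls. In knockouts it had 717 and 784, then 746, 848 and 782, then 2671, 2244 and 2659. Again no sham heart reached an MI heart, with rises of 1.99-fold (log2 1.00, SE 0.15, adjusted p = 8.58e-05) and 3.18-fold (1.67, SE 0.15, adjusted p = 6.57e-07).

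Srxn1 encodes sulfiredoxin, which repairs over-oxidised peroxiredoxins. Its counts in controls were 276 and 309 at baseline, 343, 409.6 and 267 after sham surgery and 685, 429.7 and 597 after MI, and in knockouts 274 and 247, 378, 426 and 443, and 805, 622 and 713. It rose 1.67-fold (log2 0.74, SE 0.18, adjusted p = 0.00251) and 1.71-fold (0.77, SE 0.18, adjusted p = 0.00152). Osgin1, an oxidative stress-induced growth inhibitor, had low counts throughout: 51.8 and 47.1, 59.9, 90.3 and 68.1, and 134, 85.7 and 83.2 in controls, and 55.9 and 29.3, 54.7, 47.0 and 86.3, and 137, 119 and 95.2 in knockouts. The control groups overlapped and the difference did not pass (0.45, SE 0.29, adjusted p = 0.212), while the knockout rise of 0.92 did (SE 0.29, adjusted p = 0.0139) but was lost without sham mouse 2 or MI mouse 1 (adjusted p = 0.0641 and 0.0550).

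Nqo1, the quinone reductase often read as the standard NRF2 target, went the other way. It had 655 and 793 normalized counts in unoperated controls, 1038, 732 and 588 in sham controls and 504, 451 and 292 in MI controls. In knockouts it had 935 and 685, then 513, 503 and 716, then 293, 272 and 247. Every MI heart was below every sham heart of its genotype, and Nqo1 fell to 0.530 of the sham level in controls (log2 -0.92, SE 0.23, adjusted p = 0.00333) and to 0.475 in knockouts (-1.07, SE 0.23, adjusted p = 8.23e-04), a fall that also passed with the other scaling (-0.69 and -0.71). All 8 cardiomyocyte markers fell in both genotypes as well, with median log2 fold changes of -1.77 and -2.20, and their part in the Nqo1 and Keap1 results was not tested.

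**Figure D2:**
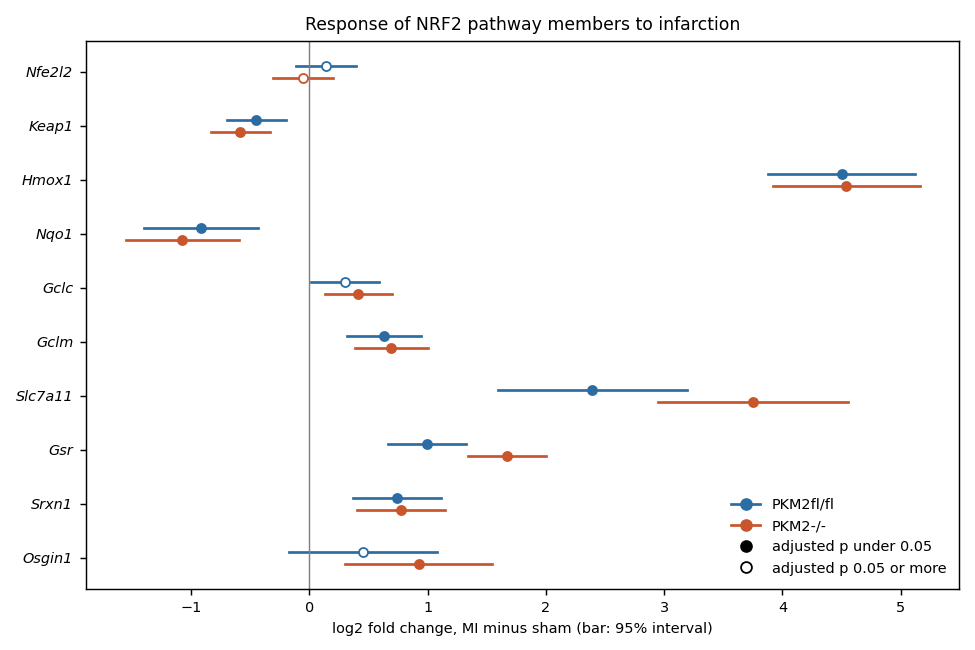
Log2 fold change from sham to MI of each member in PKM2fl/fl (blue) and PKM2-/- (orange) hearts, with 95% intervals; filled points passed an adjusted p of 0.05. Hmox1 stands at 4.50 and 4.54, Slc7a11 at 2.39 and 3.75 and Gsr at 1.00 and 1.67, while Nqo1 and Keap1 lie left of 0 in both genotypes.

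Per kilobase of the gene's canonical transcript, which lets genes be set side by side, infarction changed the order of levels. In sham controls Nfe2l2 was highest at 603 ± 110.1 (SD, n = 3) normalized counts per kilobase, ahead of Gsr (308), Nqo1 (294) and Keap1 (284), whose ranges overlapped one another, then Hmox1 (160.0), whose wide range reached that of Nqo1 above it and held that of Gclc (143) after it, Gclm (80.1), and Srxn1 (47.2) and Osgin1 (36.2), whose ranges again overlapped. Slc7a11 was last at 5.60. In MI controls Hmox1 led at 3449 ± 862 normalized counts per kilobase, and Nfe2l2 (661) and Gsr (621) overlapped. Slc7a11 still had the lowest mean, 31.2, but its range of 14.6 to 45.0 overlapped that of Osgin1, 41.4 to 66.9. In MI knockouts Gsr, at 839 to 999, lay above Nfe2l2, at 631 to 694.

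Loss of PKM2 left no member changed by the same test in unoperated, sham or infarcted hearts, where 0.00972%, 0.00972% and 0.967% of all genes were called. In unoperated hearts the log2 difference of knockouts from controls ran from -0.28 for Osgin1 (95% interval -1.04 to 0.49) to 0.43 for Hmox1 (-0.33 to 1.19). None of the 10 had an unadjusted p under 0.05, and edgeR, DESeq2 and limma-voom on recovered reads called none. Genotypes did not overlap for 3 members, Hmox1 and Slc7a11 higher and Srxn1 lower in knockouts, which is 3 of 10 where 34.9% of all genes did not overlap with 2 mice per group. Nfe2l2 (0.04, 95% interval -0.27 to 0.35) and Keap1 (-0.01, -0.31 to 0.30) had differences near 0. In sham hearts the differences ran from -0.42 for Nqo1 (95% interval -0.90 to 0.06) to 0.31 for Srxn1 (-0.07 to 0.68), again with none under an unadjusted p of 0.05, none called by the other tools, and 0 members without overlap, where 16.5% of all genes had none. Keap1 and Gclc, which share chromosome 9 with Pkm, were not among the genes that differed.

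Infarcted hearts held the widest gaps between genotypes. Slc7a11 had 135, 312 and 415 normalized counts in MI controls and 514, 691 and 811 in MI knockouts, and Gsr had 1276, 1632 and 2072 against 2244, 2659 and 2671. In both genes every knockout was above every control. The difference was 2.54-fold for Slc7a11 (log2 1.34, SE 0.38, 95% interval 0.54 to 2.15, unadjusted p = 0.00279, adjusted p = 0.0921) and 1.55-fold for Gsr (0.63, SE 0.15, 95% interval 0.30 to 0.96, unadjusted p = 0.00103, adjusted p = 0.0628), so neither passed. Nqo1, at 292 to 504 in controls and 247 to 293 in knockouts, overlapped by 1 mouse (-0.58, SE 0.23, adjusted p = 0.207). The 2 members without overlap compare with 18.9% of all genes. An unadjusted p under 0.05 was reached by 3 of the 10 members, and by 3492 of the 20576 genes tested. The other tools split: edgeR called no member, limma-voom called Slc7a11 (adjusted p = 0.0487), and DESeq2 called Slc7a11 and Gsr (adjusted p = 0.0180 and 0.0129). Over all genes edgeR called 209 of 20576, limma-voom 187 of 20576 and DESeq2 1033 of 18329.

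The calls turned on 1 library as well as on the tool and the scaling. With libraries scaled to reads outside rRNA-related loci Gsr passed (0.74, adjusted p = 0.0398), as did 220 of the 20576 genes in all. Without PKM2fl/fl MI mouse 3, Slc7a11 (log2 1.68, adjusted p = 0.0119), Gsr (0.80, adjusted p = 0.00232) and Nqo1 (-0.82, adjusted p = 0.0241) all passed. Calls over all genes were not counted without that heart, so nothing particular to these members is read from their calls. That heart had the highest Slc7a11 and Gsr and the lowest Nqo1 and Keap1 of the control MI hearts, and its cardiomyocyte markers summed to 166903, less than in any knockout MI heart, where the other MI controls had 401307 and 415014. The knockout MI hearts also had more neutrophil markers (6 genes, 3529 to 4530 against 1232 to 2141 in MI controls). No cardiomyocyte, macrophage or neutrophil marker passed between the genotypes after MI by limma. An unadjusted p under 0.05 was reached by 3 of 8, 2 of 9 and 4 of 5 tested, beside 3492 of the 20576 genes. The part of these cell type markers in the Slc7a11, Gsr and Nqo1 gaps was not tested.

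**Figure D3:**
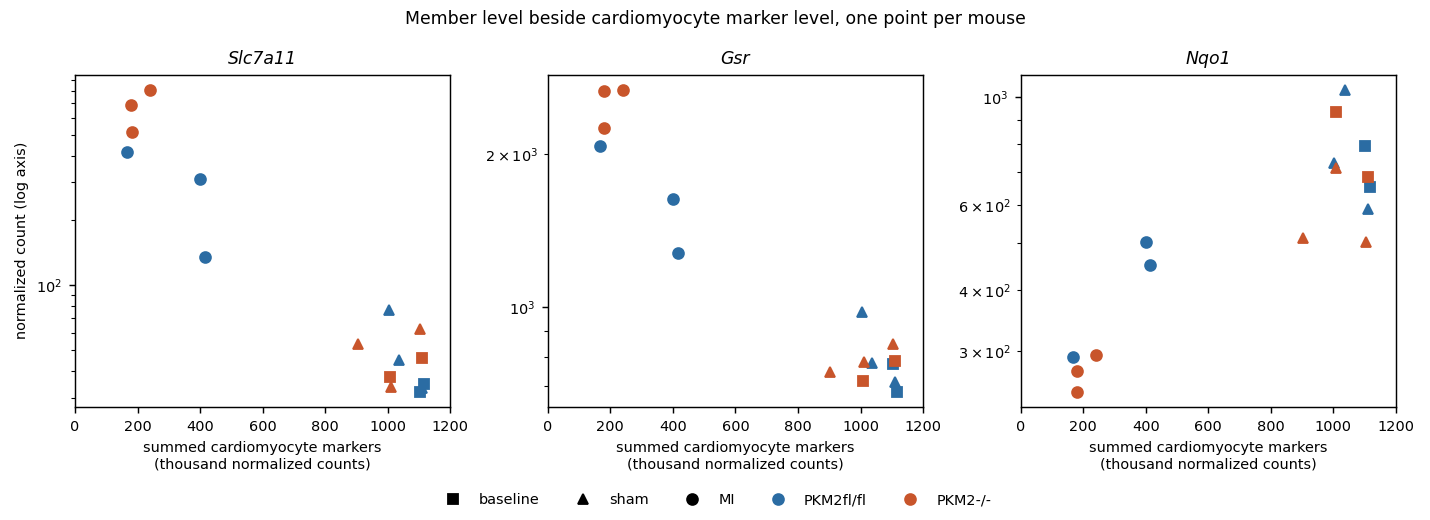
Normalized counts of Slc7a11, Gsr and Nqo1 (log axes) against the summed level of 8 cardiomyocyte markers, 1 point per mouse, with shape for treatment and colour for genotype. The 6 MI hearts lie at the left, and PKM2fl/fl MI mouse 3, at a marker sum of 166903, lies nearer to the knockout MI hearts than do the other MI controls.

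Whether MI acted differently in the genotypes was tested as an interaction. The largest interactions among the members were those of Slc7a11 (log2 1.36, SE 0.53, unadjusted p = 0.0221, adjusted p = 0.540) and Gsr (0.67, SE 0.22, unadjusted p = 0.00769, adjusted p = 0.497), and no member passed by limma, edgeR, DESeq2 or limma-voom. No gene of the 20576 passed by limma, where 1703 had an unadjusted p under 0.05, so 0 members called is also the background. Gsr passed without PKM2fl/fl MI mouse 3 (0.85, adjusted p = 0.0320), a fit in which calls over all genes were not counted. The interaction of Hmox1 was 0.04 (95% interval -0.84 to 0.92).

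**Figure D4:**
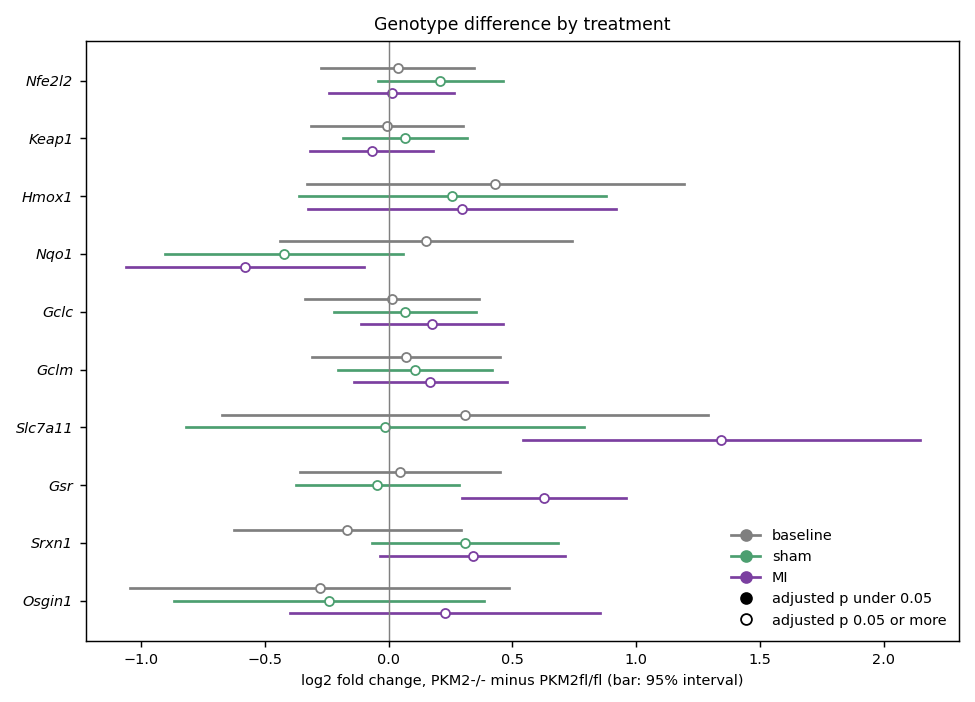
Log2 difference of PKM2-/- from PKM2fl/fl hearts for each member at baseline (grey), after sham surgery (green) and after MI (purple), with 95% intervals; open points did not pass an adjusted p of 0.05. Every point is open, and the MI intervals of Slc7a11 (0.54 to 2.15), Gsr (0.30 to 0.96) and Nqo1 (-1.06 to -0.10) do not reach 0 before adjustment.

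Sham surgery alone moved no member past the test in either genotype (0.190% of all genes called in controls, 5.14% in knockouts). Hmox1 was higher in every sham heart than in any unoperated heart of its genotype, by 0.93 (SE 0.33, adjusted p = 0.336) in controls and 0.76 (SE 0.33, adjusted p = 0.218) in knockouts on the log2 scale, and the control value passed without sham mouse 3 (1.30, adjusted p = 0.0357). In knockouts Nfe2l2 (0.46, SE 0.13, adjusted p = 0.0621) and Srxn1 (0.67, SE 0.20, adjusted p = 0.0632) were also clear of the unoperated hearts and missed the threshold. DESeq2 called both (adjusted p = 0.0334 and 0.0399), where it called 1405 of 20661 genes. By edgeR and limma-voom no member was called, where they called 790 and 390 of 20576 genes. The macrophage and monocyte markers moved with sham surgery as well, all 9 with an unadjusted p under 0.05 in both genotypes (median log2 difference 1.01 in each), of which 0 passed in controls and 4 in knockouts. The 5 neutrophil markers tested had medians of 2.82 and 3.41 (0 and 5 passed, all 5 with an unadjusted p under 0.05 in each), and the 4 atrial markers 2.99 and 1.38 (0 and 1 passed). Their part in the sham values of Hmox1, Nfe2l2 and Srxn1 was not tested. Sham and baseline values did not overlap for 3 members in each genotype, beside 32.5% and 34.5% of all genes. An unadjusted p under 0.05 was reached by 1 member in controls and 3 in knockouts, beside 1813 and 3886 of the 20576 genes tested.

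The wider pathway was read from 38 further genes in 6 lists, of which 36 could be tested. In MI controls 23 of the 36 were called (11 higher, 12 lower), and in MI knockouts 25 (14 higher, 11 lower), with medians of -0.05 and 0.02. Of all genes tested 50.1% and 56.8% were called, 24.8% higher and 25.3% lower in controls and 28.7% and 28.1% in knockouts, so nothing particular to these lists is read from their counts. Between genotypes after MI 1 of the 36 was called, thioredoxin (Txn1): 1418, 1516 and 1510 normalized counts in controls and 2139, 1954 and 2324 in knockouts (log2 0.53, SE 0.12, adjusted p = 0.0494). The call is at the edge of the threshold, and Txn1 was chosen here after its value was seen as well as by rank.

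Of 5 genes of the pentose phosphate pathway and malic enzyme, 4 rose and 1 fell in both genotypes. The enzymes of Pgd and G6pdx, and malic enzyme, make NADPH, which GSR and thioredoxin reductase consume, while Tkt and Taldo1 belong to the non-oxidative arm. Pgd rose by 1.42 and 1.74 on the log2 scale (controls, then knockouts; adjusted p = 6.11e-07 and 7.78e-08), G6pdx, the first enzyme of the pathway, by 1.35 and 1.46, and Tkt, transketolase, by 1.05 and 1.24. Me1, malic enzyme, fell in both, with log2 changes of -0.91 and -1.06. The thioredoxin list rose in 2 of 3 genes in controls and 3 of 3 in knockouts, with Txnrd1, thioredoxin reductase, at 0.78 and 0.96, Txn1 at 0.49 and 1.08, and the peroxidase Prdx1 at 0.25 (adjusted p = 0.129) and 0.50.

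Among iron and heme genes, 1 of 5 rose in controls and 3 of 5 in knockouts. Ftl1, the ferritin light chain that stores iron, gave 1.77 and 2.21 log2 units, and the biliverdin reductases Blvrb (0.66, adjusted p = 0.0582, and 1.04) and Blvra (0.26, adjusted p = 0.128, and 0.63) passed in knockouts. Of 7 other glutathione genes tested 1 rose and 4 fell in controls, and 1 rose and 3 fell in knockouts. The glutathione transferases Gstm1 (-1.42 and -1.84) and Gsta4 (-1.66 and -1.75) fell, and the conjugate exporter Abcc1 rose (0.60 and 0.74). Ftl1, Prdx1, Txn1 and Gstm1 have close copies in the genome, and the sources do not say how reads matching several places were counted.

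Of 6 other detoxification genes 2 rose and 3 fell in each genotype. Ugdh, which makes the sugar donor for glucuronidation, rose by 1.28 and 1.59, Trim16 by 0.92 and 0.68, and the carbonyl reductase Cbr1 fell by 1.18 and 1.05 on the log2 scale. Among 10 partners and regulators of NRF2 turnover 1 rose and 4 fell in each genotype. The related factor Nfe2l1 fell by 1.07 and 1.05, Sqstm1, the autophagy receptor that binds KEAP1, by 0.58 and 0.55, and the ligase subunit Rbx1 by 0.48 in controls and stood at 0.00 in knockouts (adjusted p = 0.976), a difference between genotypes that did not pass (interaction 0.48, adjusted p = 0.459).

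**Figure D5:**
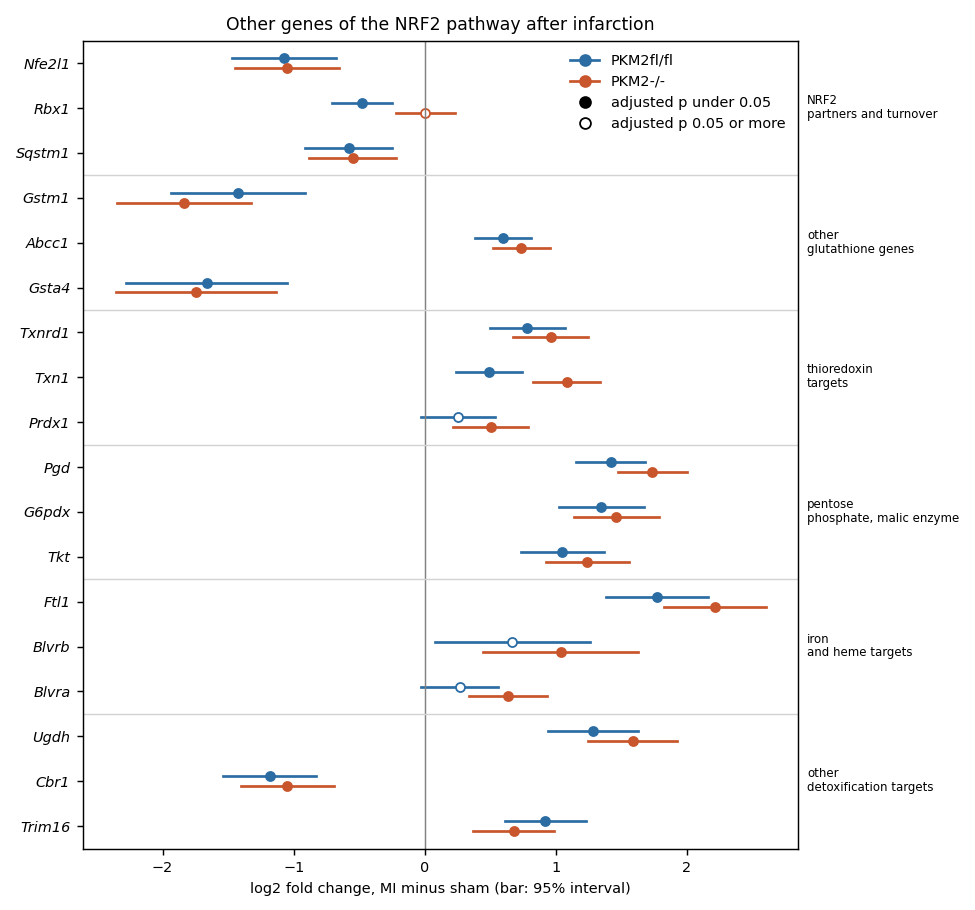
Log2 fold change from sham to MI, with 95% intervals, of the 3 genes with the smallest adjusted p (controls) in each of 6 further pathway lists, in PKM2fl/fl (blue) and PKM2-/- (orange) hearts; filled points passed an adjusted p of 0.05. Pgd, G6pdx and Tkt lie to the right of 1 in both genotypes, and Nfe2l1, Sqstm1, Gstm1, Gsta4 and Cbr1 lie to the left of 0.

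The genes whose course over the 16 hearts was most like that of a member were ranked by the root mean square difference of log2 values, each centred on its own mean. For Hmox1 they were Lgals3 (0.40), Col12a1 (0.45), Fn1 (0.46), Gm41724 (0.46) and Syn1 (0.47), where the SD of Hmox1 itself was 2.48 and 6 genes in all lay within 0.5. Lgals3, galectin 3, is on the macrophage marker list and rose by 4.21 and 4.19 on the log2 scale. For Nfe2l2 they were Cflar (0.11), Ndel1, Snap23, Calhm2 and Hyal2 (0.13), but its own SD was only 0.22 and 10463 genes lay within 0.5, so many genes follow so flat a course.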

How the data were processed

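RNA from left ventricles was depleted of rRNA, sequenced paired-end on a NextSeq 550, aligned to mm10 with HISAT2 and counted with featureCounts by the authors, per the study's methods; versions, annotation, strand and multi-mapping settings are not given in the sources used here. The authors deposited 1 table of DESeq2-normalized counts (a signal unit: reads divided by a size factor) with a mean column and with log2 fold changes, their standard errors, a test statistic (a score) and p-values of their own comparisons, which were not used. Whole reads were recovered from the deposited signal in 100% of values checked (up to 20000 reads, tolerance 0.01 reads). No column was left without a sample, and no pair of libraries was identical. Each library is its own mouse.

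The normalized counts plus 1 were log2-transformed, and the 20576 genes averaging 10 or more over 16 libraries were fitted by limma 3.58.1 (trend, R 4.3.3) with 6 groups; p-values were two-sided and Benjamini-Hochberg adjusted over all genes tested, and fold changes are on the log2(value + 1) scale, which understates changes of low genes. Both within-library ratios were tested by exact permutation. edgeR 4.0.16, DESeq2 1.42.0 and limma-voom were run on recovered reads as alternatives. The fit was tested on simulated data. Same-numbered libraries did not deviate together, so the numbers were not used as pairs, although so few mice per group cannot exclude a pairing.

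The members and the gene lists were chosen with earlier results of these data known. Named in the text were all 10 members, from each further list the 3 genes with the smallest adjusted p in MI controls, the 5 genes nearest to Nfe2l2 and to Hmox1 in course, and marker genes; Me1 was named after its value was seen. Promoter sequences and positions are from RefSeq, GRCm38.p6, where 7 of 10 members had a promoter entry; transcript lengths are those of GENCODE M39.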

Additional observations from a re-analysis of the deposited data

How the results depend on the processing

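The members called after MI numbered 7 to 8 in controls and 7 to 9 in knockouts over all alternatives and with each replicate left out in turn, against 7 and 9 as reported. With libraries scaled to reads outside rRNA-related loci, Keap1 left the calls and Nfe2l2 joined them in both genotypes, and Gclc joined in controls; that is 7 higher and 1 lower in controls and 8 higher and 1 lower in knockouts. Under that scaling the knockout value of Nfe2l2 reversed to 0.31, and the calls over all genes became 7147 higher and 3322 lower (controls; 5097 and 5202 as reported) and 9012 and 3422 (knockouts; 5899 and 5780). Of the alternative values of single members after MI, 288 kept their direction and side of the threshold, 6 lost a call, 5 gained one and 1 reversed; the cause was not tested.

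Between genotypes after MI, 0 members were called as reported, 1 with the rRNA-free scaling (Gsr, 0.74), 2 by DESeq2, 1 by limma-voom and 0 to 3 with 1 replicate left out. For the interaction leaving out 1 replicate gave 0 to 1. Calls over all genes were not counted for the fits with a replicate left out. Sham against baseline gave 0 to 1 in controls with 1 sham replicate left out. In knockouts it gave 2 (Nfe2l2 and Srxn1) with the rRNA-free scaling, by DESeq2 and with only the groups compared. Over all genes those settings called 944 of 20576, 1405 of 20661 and 741 of 20173. With 1 sham replicate left out the knockouts gave 0 throughout. Both baseline and sham comparisons of genotype gave 0 under all alternatives. The ratio rises ran from 0.46 to 0.66 (Nfe2l2 to Keap1) and from 0.26 to 0.36 (Gclm to Gclc) with 1 replicate left out.

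Calls over all genes between genotypes after MI, 199 (81 higher, 118 lower), were 1033 by DESeq2, 75 with the replicate block and 6 with only the groups compared, and 171 higher and 49 lower with the rRNA-free scaling. DESeq2 also called 267 and 356 genes where limma called 2 (genotype, sham) and 39 (sham surgery, controls), and 52 for the interaction, where limma called 0; limma-voom called 390 genes for sham surgery in knockouts, where limma called 1058. Replicate numbers did not pair the samples (correlations of deviations from -0.20 to 0.13), and with the replicate number as a block the members called stayed at 7 and 9 after MI and 0 elsewhere, while the paired sign-flip test of both ratios gave p = 0.03125, the smallest that 6 pairs allow.

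Depth did not limit Hmox1, Gsr or Nfe2l2, but Osgin1 and Slc7a11 rest on as few as 16 and 25 reads in a library.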

Other observations

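Transcripts of the small MAF proteins, with which NRF2 pairs on DNA, were measured beside the members. Maff, chosen here after its values were seen, was the member of the partner list that changed after sham surgery in knockouts, with 129 and 154 normalized counts in unoperated and 484, 774 and 368 in sham hearts (log2 1.86, SE 0.32, adjusted p = 0.00448, limma). In the same comparison 5 of 5 neutrophil markers tested, 4 of 9 macrophage, 3 of 7 fibroblast and 1 of 4 atrial markers also rose, and their part in the Maff result was not tested. In controls Maff read 104 and 187 unoperated and 325, 216 and 177 after sham surgery (0.73, adjusted p = 0.514), and the sham hearts of the genotypes differed by 1.15 (adjusted p = 0.136), neither of which passed. After MI it did not differ from sham in controls (0.17, adjusted p = 0.649) or knockouts (-0.33, adjusted p = 0.336) beyond the spread. Also chosen after their values were seen, G6pdx rose (0.63, adjusted p = 0.0440) and Ephx1 fell by 0.69 (adjusted p = 0.0130) in sham against unoperated knockouts on the log2 scale. In controls the mean of G6pdx went from 164 to 248 normalized counts, and that of Ephx1 from 1008 to 832. Sham surgery had 3 of the 36 genes of the further lists called in knockouts and 0 in controls, beside 5.14% and 0.190% of all genes.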
